A study of Homo sapiens with 3 samples.

Results

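The comparison described here sets SKBR3 cells given the peptide ERα17p against SKBR3 cells given ethanol vehicle, both read after 3 h. It takes 2 of the 3 arrays of the study, the array labelled ERα17p and the array labelled vehicle, and the 19775 genes that both measured through probe sets with exactly 1 gene symbol. SKBR3 is an established human breast cancer line with amplified ERBB2. It lacks oestrogen receptor α and has GPER1, an oestrogen receptor of the G protein-coupled class. The medium held 10% serum stripped of steroid hormones with charcoal. After 4 h in it, the vehicle cells received 0.1% ethanol and the peptide cells 1 µM ERα17p. The remaining array, from cells given 1 µM estradiol for 3 h, is used only as a second reference. The labels do not name the solvent of the peptide. Each condition was 1 array of 1 cell line, so no difference below has a test, an error or a replicate check.

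ERα17p is a synthetic peptide whose sequence comes from the border of the hinge and ligand-binding regions of oestrogen receptor α, a stretch known for binding calmodulin, and it has been described as a ligand of GPER1. Genes that respond within hours of a stimulus fall into known classes. NF-kB dimers, held in the cytoplasm by IκB proteins until a signal removes these, switch on chemokine, cytokine and feedback inhibitor genes. Serum response factor and AP-1 factors drive FOS, JUN and EGR genes, ATF4 drives the response to amino acid and protein folding stress, and late cell cycle genes are transcribed from G2 into mitosis.

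Values are distances, on a scale read as log2, from a baseline that had already been subtracted from each probe set in the deposited table. A difference between arrays can be read from them and an expression level cannot. A gene's value is the median over its probe sets. "Lower" and "higher" mean that the ERα17p array differed from the array labelled vehicle by at least 1.5-fold (0.585 log2 units), and the same threshold is used for each array's distance from the baseline, which stands at 0. Medians over probe sets were -0.02 for the array labelled vehicle and 0.00 for the ERα17p array, with standard deviations of 0.27 and 0.13. ACTB, whose 3′ and 5′ probe sets track RNA quality, had a difference between them of 0.30 on the array labelled vehicle and -0.04 on the ERα17p array. GAPDH had 0.05 and -0.03. The part of RNA quality in the differences was not tested. Because levels cannot be read, the labelled cell type could not be checked against its markers. None of 5 leukocyte, 6 fibroblast and 6 endothelial marker genes was lower or higher (medians -0.07, 0.01 and 0.09), and of 15 luminal and SKBR3 genes only TFAP2B, a transcription factor gene, was (0.63 higher, from probe sets between -0.07 and 0.75). Of all genes 2.73% were lower or higher, a share at which lists this small hold few or none.

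On the ERα17p array 424 of 19775 genes were lower than on the array labelled vehicle (2.14% of all genes) and 115 were higher (0.582%), 539 in all (2.73%). The median difference of all genes was 0.03 log2 units. The lower genes reached much farther than the higher ones. Of the 424, 278 differed by less than 2-fold, 116 by 2- to 4-fold, 22 by 4- to 8-fold, 2 by 8- to 16-fold and 6 by 16-fold or more, whereas 112 of the 115 higher genes stayed under 2-fold and the other 3 under 4-fold. Quantile normalization of the distances from the baseline brought all 3 arrays, with the estradiol array, to one distribution. After it 123 genes were lower and 132 higher, and the higher genes made up 51.8% of calls instead of 21.3%. Of these, 121 lower and 58 higher genes were among those called without it. That setting gives the genes at the top of each array a common value by construction.

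The array labelled vehicle, and not the ERα17p array, lay far from the baseline in most lower genes. In 375 of the 424 it was itself at least 1.5-fold above the baseline. The ERα17p array lay within 0.1 log2 units of the baseline in 244 of them, a smaller share than among all genes (14189 of 19775). On it 250 of the 424 (59.0%) were above 0, against 53.7% of all genes. Their medians were 0.83 on the array labelled vehicle, 0.02 on the ERα17p array and -0.03 on the estradiol array. For the 115 higher genes they were -0.56, 0.12 and -0.03, with the array labelled vehicle past 1.5-fold below the baseline in 48. Against the baseline itself, the ERα17p array had 13 genes higher (0.0657%) and 1 lower (0.00506%), so the choice of reference decides nearly every call. The same threshold put 465 genes above the baseline (2.35%) and 60 below it (0.303%) on the array labelled vehicle. The baseline is not independent of the arrays of this study, so it is no outside reference. How far this kept the treated arrays near 0 was not tested.

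**Figure D1:**
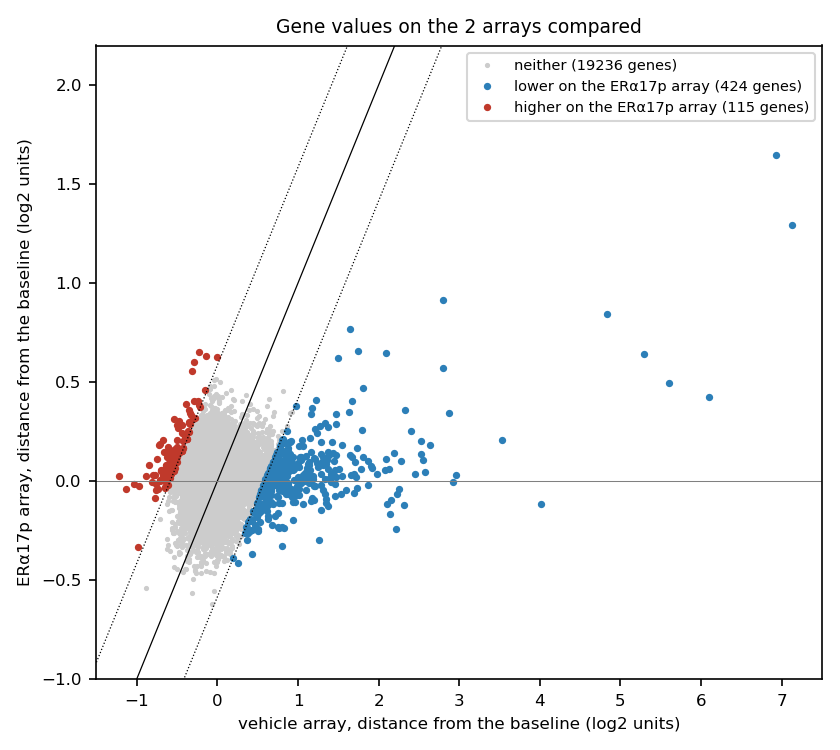
Each point is a gene, with its distance from the baseline on the vehicle array along the horizontal axis and on the ERα17p array along the vertical axis, both in log2 units and drawn at different scales. The solid line marks equal values and the dotted lines 1.5-fold; the 424 lower genes (blue) spread to the right along the baseline of the ERα17p array, and the 115 higher genes (red) lie close to the upper dotted line.

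The probe sets of a gene can be compared within the arrays, though they are not replicates. Calls rest on the median over these same probe sets, so selection alone favours agreement in called genes, and the shares below are no check. Of the lower genes, 209 had several probe sets, and in 175 (83.7%) all of them pointed the same way. Among the higher genes this held for 22 of 25 (88%), and among all genes with several probe sets for 4827 of 10523 (45.9%). A single probe set read 215 of the lower genes (50.7%) and 90 of the higher ones (78.3%), against 46.8% of all genes.

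CCL20, a chemokine gene that recruits dendritic cells and lymphocytes, differed most. It stood at 7.12 log2 units above the baseline on the array labelled vehicle, at 1.29 on the ERα17p array and at -0.06 on the estradiol array, a difference of -5.83 between the first 2, or 57.0-fold. CXCL1, which recruits neutrophils, stood at 6.10, 0.43 and -0.32 in the same order (-5.67). CXCL8, the interleukin 8 gene, stood at 6.93, 1.65 and -0.31 (-5.28, with its 2 probe sets at -5.51 and -5.05). In all 3 genes the ERα17p array remained above the estradiol array. SELE, which encodes the selectin that tethers leukocytes, stood at 5.61, 0.49 and -0.06 (-5.11). TNF, an inflammatory cytokine gene, stood at 5.30, 0.64 and -0.09 (-4.65), and CXCL3, a further neutrophil chemokine, at 4.02, -0.11 and 0.12 (-4.13). These are the 6 genes that differed by 16-fold or more. TNFAIP3, which encodes the ubiquitin editor A20 that ends NF-kB signalling, stood at 4.84, 0.84 and -0.14 (-3.99). IRF1, an interferon regulatory factor gene, stood at 3.54, 0.21 and -0.14 (-3.33).

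**Figure D2:**
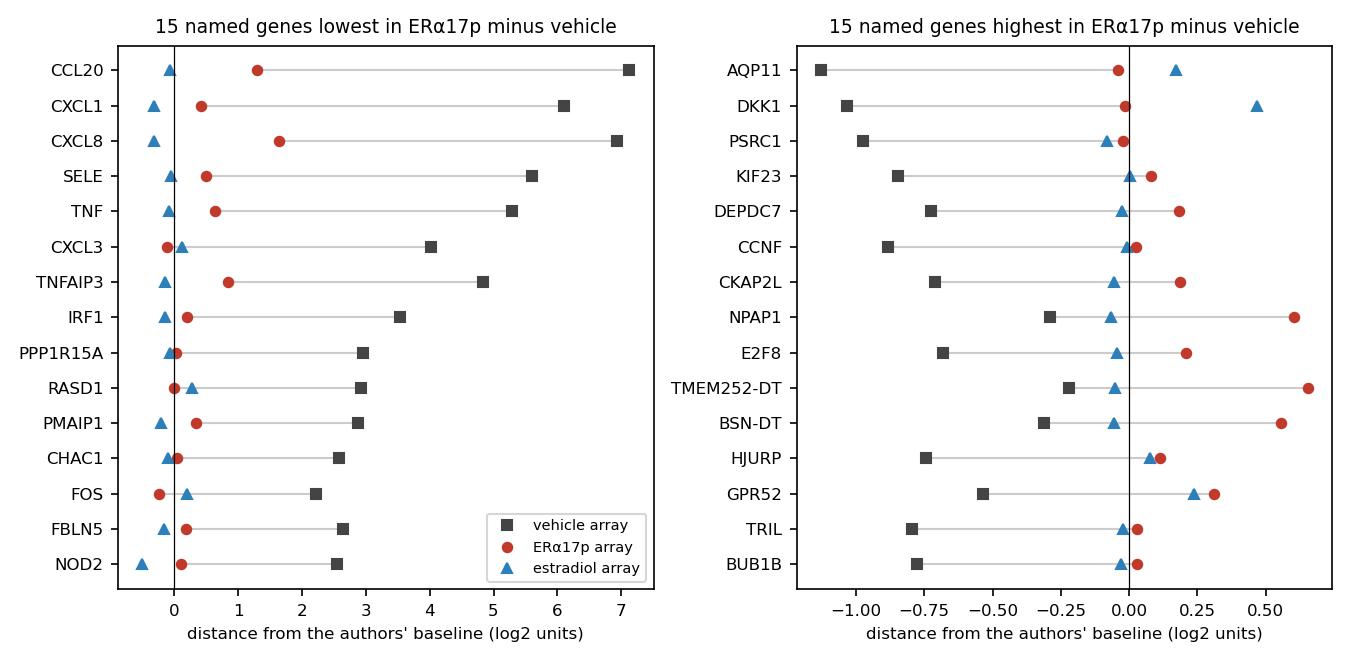
Distances from the baseline (log2 units) for the 15 named genes lowest (left) and the 15 highest (right) in ERα17p minus vehicle, leaving out genes known only by a locus number, of which 1 was higher than any shown (1.25), with 1 mark per array and a grey line joining the 2 arrays compared. In the left panel the vehicle squares run from 2.22 for FOS to 7.12 for CCL20 while the ERα17p circles stay between -0.24 and 1.65; the panels have different scales.

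The stretch upstream of the start of 6 of these genes is shown because 5 of them hold a match to the NF-kB consensus, searched on both strands by its name, and CXCL8 holds the 9-letter core GGAATTTCC. Sequences are from RefSeq (GRCh38.p14), 120 bases ending at the base before the start, in the direction of transcription, with the matches in capitals. CCL20 is at chr2:227813722-227813841 (plus strand), CXCL1 at chr4:73869273-73869392 (plus strand), CXCL8 at chr4:73740449-73740568 (plus strand), SELE at chr1:169734080-169734199 (minus strand), TNFAIP3 at chr6:137867139-137867258 (plus strand) and IRF1 at chr5:132490774-132490893 (minus strand). They were chosen after the values were seen.
CCL20: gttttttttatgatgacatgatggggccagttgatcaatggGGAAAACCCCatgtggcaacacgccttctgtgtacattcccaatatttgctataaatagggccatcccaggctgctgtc
CXCL1: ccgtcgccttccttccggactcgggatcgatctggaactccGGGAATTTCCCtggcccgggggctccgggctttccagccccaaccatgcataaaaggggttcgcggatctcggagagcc
CXCL8: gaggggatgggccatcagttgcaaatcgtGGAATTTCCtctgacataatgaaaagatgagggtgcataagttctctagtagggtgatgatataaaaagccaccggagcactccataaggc
SELE: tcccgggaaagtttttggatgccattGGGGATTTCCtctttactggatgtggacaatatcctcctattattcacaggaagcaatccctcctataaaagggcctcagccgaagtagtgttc
TNFAIP3: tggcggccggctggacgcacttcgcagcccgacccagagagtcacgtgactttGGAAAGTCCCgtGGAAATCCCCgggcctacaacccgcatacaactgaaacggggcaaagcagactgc
IRF1: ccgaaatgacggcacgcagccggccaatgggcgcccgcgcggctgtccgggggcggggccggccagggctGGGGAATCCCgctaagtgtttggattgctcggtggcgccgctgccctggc
The match starts 79 bases before the start of CCL20, 91 before that of CXCL8, 94 before that of SELE and 50 before that of IRF1. TNFAIP3 has 2 matches side by side, at 67 and 55 bases, and CXCL1 has 2 that overlap, at 79 and 78. The letters GGAATTTCC also lie within the CXCL1 match.

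Inflammatory genes were grouped in 10 lists holding 159 measured genes. Of these 31 were lower (19.5%, against 2.14% of all genes) and 1 was higher (0.629%, against 0.582%). All lists were chosen with earlier results of these data known. Among secreted signals, 5 of 13 CXC chemokine genes were lower and none higher, with a list median of -0.23. Besides CXCL1, CXCL8 and CXCL3 these were CXCL10 (2.80 with vehicle, 0.57 with ERα17p, difference -2.23) and CXCL11 (1.64 and 0.77, -0.87), both interferon-induced chemokines for lymphocytes. The median hides a split within CXCL2, whose 3 probe sets ran from -4.37 to 0.16 around a gene value of -0.02. Of 12 CC and CX3C chemokine genes 4 were lower (median -0.17), namely CCL20, CX3CL1 or fractalkine (-2.42), the monocyte attractant CCL2 (2.80 and 0.91, -1.88) and CCL5 (0.93 and -0.20, -1.13). Among 21 cytokines and TNF family ligands 3 were lower (median -0.06): TNF, the T cell costimulator TNFSF9 (-1.71) and IL6 (-0.62).

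Genes inside the NF-kB loop formed the list with the largest share of lower members. Of 16 subunit and inhibitor genes 9 were lower and 0 higher. The list had a median of -0.60 and array medians of 0.61 with vehicle, 0.03 with ERα17p and 0.00 with estradiol. The inhibitor genes NFKBIZ (2.25 with vehicle, -0.04 with ERα17p, difference -2.30) and NFKBIE (1.97 and 0.03, -1.94) differed more than the subunit genes REL (1.54 and 0.03, -1.52), RELB (1.36 and 0.11, -1.26) and NFKB1 (1.13 and 0.05, -1.08). NFKBIA, the gene of IκBα, was at -1.04, from probe sets at -2.18 and 0.11, and NFKB2 at -0.59, from probe sets between -1.96 and 0.08. CYLD, a deubiquitinase gene of the same loop, was at -0.61 over 7 probe sets that all pointed down. Among 21 TNF receptor and transducer genes 4 were lower (median -0.21): the kinase genes MAP3K8 (-1.60) and RIPK2 (-1.54), and the adaptor genes TIFA (-0.73) and TRAF3 (-0.69).

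The other inflammatory lists held fewer such genes. Of 11 leukocyte adhesion genes 2 were lower (median -0.19), SELE and ICAM1 (-1.77), the latter from 3 probe sets between -3.33 and 0.11. Of 20 Toll-like receptor and adaptor genes 2 were lower (median -0.03), the bacterial sensor NOD2 (2.55 with vehicle and 0.11 with ERα17p, -2.45) and the adaptor TICAM1 (-1.46). IRF1 was the only lower one of 9 interferon regulatory factors (median -0.06), and IFIH1, an RNA sensor gene (-0.82), that of 25 interferon-stimulated genes (median -0.04). On the ERα17p array 19 of those 25 lay above the baseline (53.7% of all genes), and on the estradiol array 5 (46.1% of all genes). Both counts rest on a baseline that is not independent of these arrays, so they are not separate observations. Of 11 SOCS and PIM genes none was lower (median -0.24), and CISH, a cytokine signalling inhibitor gene, was higher (-0.76 with vehicle and -0.05 with ERα17p, 0.72).

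Early transcription factors and mRNA decay factors made up 57 measured genes, of which 22 were lower (38.6%, against 2.14% of all genes) and none was higher. In the AP-1 and small MAF list 7 of 15 were lower (median -0.35). FOS, the partner of JUN in AP-1, stood at 2.22 with vehicle, -0.24 with ERα17p and 0.20 with estradiol (-2.46). MAFF stood at 2.32, -0.12 and 0.12 (-2.44), and JUN at 1.71, 0.10 and -0.01 (-1.61, its 4 probe sets between -1.80 and -1.44). The stress factor ATF3 was at -2.18, although its 3 probe sets spread from -2.95 to -0.03. FOSB (-1.88), JUNB (-1.35) and MAFG (-0.70) completed the 7.

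Among EGR, NR4A and IER genes 8 of 16 were lower (median -0.59, with array medians of 0.63, 0.01 and 0.02 for vehicle, ERα17p and estradiol). The orphan receptor gene NR4A2 stood at 1.73 with vehicle, -0.04 with ERα17p and 0.03 with estradiol (-1.77), and EGR1 at 1.37, -0.13 and 0.31 (-1.49). IER5 (-1.40), IER3 (-1.15), the matricellular gene CCN2 (-1.14), EGR3 (-1.01), NR4A3 (-1.01) and ETS1 (-0.60) were the other 6. Of 13 Krüppel-like factors KLF6 (-1.05), KLF4 (-0.72), KLF7 (-0.68, from probe sets between -0.90 and 0.07) and KLF10 (-0.60) were lower (list median -0.22). Of 13 mRNA decay factors, which shorten the life of messages, 3 were lower (median -0.21): ZFP36 (2.16 with vehicle, -0.09 with ERα17p, -2.25), ZC3H12C (-1.54) and ZFP36L1 (-0.71). The probe sets of ZC3H12C were at -3.07 and 0.00, and those of ZFP36L1 lay between -1.31 and 0.27. Without probe sets marked as shared between transcripts, the list medians were -0.03 for Krüppel-like factors and -0.0040 for mRNA decay factors.

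Feedback genes of signalling pathways showed 17 of 93 lower (18.3%, against 2.14% of all genes) and 1 higher (1.08%, against 0.582%). The phosphatases that switch off MAP kinases included DUSP10 (2.10 with vehicle, -0.12 with ERα17p, -2.22) and DUSP5 (-1.37), 2 of 10 measured (median -0.28). ERK feedback genes were lower in 5 of 15 cases (median -0.26): the ERK brake SPRY4 (-1.40), the EGFR and ERBB2 inhibitor ERRFI1 (-1.32), IER3, PHLDA1 (-0.89, from probe sets between -2.23 and 0.31) and the receptor EPHA2 (-0.88). Of that list 4 of 15 genes lay above the baseline with ERα17p (53.7% of all genes) and 14 of 15 with estradiol (46.1% of all genes). Here too the 2 counts share the baseline and are not separate observations. DUSP6, an ERK-specific phosphatase gene, stood at 0.23 with vehicle, -0.28 with ERα17p and 0.21 with estradiol, which did not reach 1.5-fold.

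Of 13 EGF family ligands and ERBB receptors the ligand genes EREG (-1.05, from probe sets at -2.41 and 0.31) and HBEGF (-0.64, from 4 between -1.81 and 0.26) were lower (median -0.04). Small G protein and RGS genes were lower in 5 of 19 cases around a median of 0.03: RASD1, a dexamethasone-induced RAS relative (2.93 with vehicle, -0.00 with ERα17p, -2.93), RGS2 (-1.98), RND1 (-1.83), RND3 (-1.63) and RGS16 (-1.06). BMP and TGF-β targets were lower in 3 of 20 cases (median -0.08): the activin subunit INHBA (-2.15, from probe sets between -3.08 and -0.01), the pseudoreceptor BAMBI (-1.25) and the corepressor TGIF2 (-1.05). ID1, a direct BMP target, stood at -0.15 with vehicle, 0.20 with ERα17p and -1.82 with estradiol. Of 16 Wnt antagonists and targets, DKK1 alone was called (median 0.12).

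**Figure D3:**
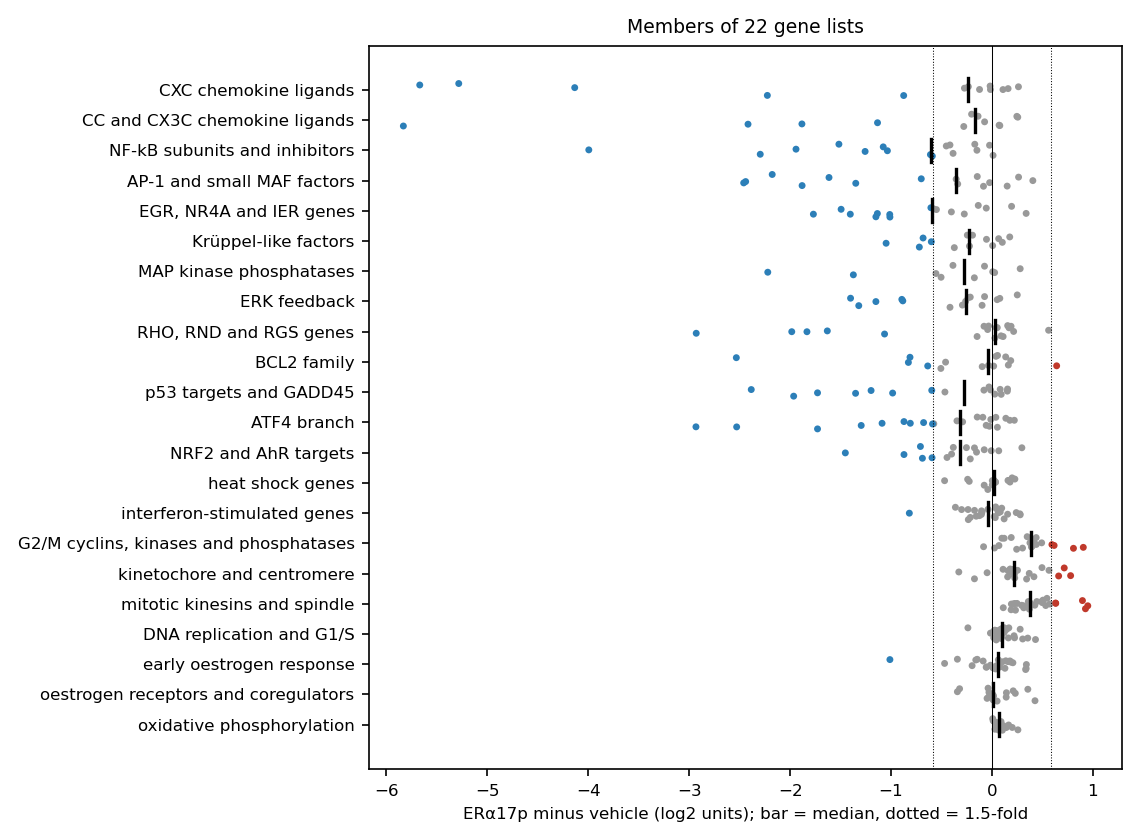
Each point is a measured member of 1 of 22 gene lists, placed by its difference ERα17p minus vehicle (log2 units), with lower genes in blue, higher genes in red and the others in grey. Black bars are list medians and dotted lines 1.5-fold; most members are grey, and in the 3 mitotic lists 12 of 72 are red and none is blue.

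Stress and death genes were lower in 30 of 137 cases (21.9%, against 2.14% of all genes) and higher in 1 (0.73%, against 0.582%). Within the BCL2 family 4 of 15 were lower and 1 higher (median -0.03). PMAIP1, the gene of the killer protein NOXA, stood at 2.88 with vehicle, 0.34 with ERα17p and -0.21 with estradiol (-2.53, both probe sets within -2.54 to -2.52). BCL2L11, the gene of BIM, was at -0.83 with all 7 probe sets below 0, the survival gene BCL2A1 at -0.81 and BID at -0.64, while the killer gene BMF was higher (0.64). Of 17 death receptor and caspase genes the TRAIL receptor genes TNFRSF10B (-0.87) and TNFRSF10A (-0.81) were lower (median 0.02). The lower members thus include a gene that opposes death, BCL2A1, and 3 that promote it, PMAIP1, BCL2L11 and BID.

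The list of p53 targets and GADD45 genes had 7 of 16 lower (median -0.27). PLK2, a polo-like kinase gene induced by stress, stood at 2.52 with vehicle, 0.14 with ERα17p and 0.19 with estradiol (-2.38). GADD45A stood at 2.32, 0.36 and -0.11 (-1.96), and the cell cycle inhibitor CDKN1A at 1.30, 0.10 and -0.68 (-1.20). SESN2 (-1.73), GADD45B (-1.35), the nuclease AEN (-0.98) and the phosphatase PPM1D (-0.60) were the other 4.

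In the ATF4 branch 9 of 22 genes were lower (median -0.32, or -0.81 without probe sets marked as shared between transcripts). PPP1R15A, which encodes the GADD34 subunit that restarts translation, stood at 2.96 with vehicle, 0.03 with ERα17p and -0.07 with estradiol (-2.93), and CHAC1, a glutathione-degrading enzyme gene, at 2.58, 0.05 and -0.10 (-2.53). SESN2, DDIT3 or CHOP (-1.30), CEBPB (-1.09), the cystine transporter SLC7A11 (0.62 with ERα17p and -0.06 with estradiol, -0.87, from probe sets between -0.87 and 0.03), CEBPG (-0.81), asparagine synthetase ASNS (-0.68) and DDIT4 (-0.59) followed. The chaperone side of the same stress response did not share this: of 19 endoplasmic reticulum genes only the sensor kinase ERN1 was lower (-0.81, from probe sets between -1.03 and 0.04), and the list median was 0.10. None of 15 heat shock genes was called (median 0.02).

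NRF2 and AhR targets were lower in 5 of 16 cases (median -0.32). Haem oxygenase HMOX1 stood at 2.10 with vehicle, 0.65 with ERα17p and -0.51 with estradiol (-1.45). SLC7A11, the AhR repressor AHRR (-0.71), OSGIN1 (-0.69) and AHR (-0.59) were the other 4. Of 19 hypoxia and glycolysis genes PFKFB3 (-1.04), BHLHE40 (-0.95), EGLN3 (-0.74) and ADM (-0.73) were lower (median -0.11). BHLHE40 also belongs to the circadian list, where 2 of 16 genes were lower (median -0.25), the other being NFIL3 (-1.08).

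Cell division genes pointed the other way, by smaller amounts. In 3 lists of mitotic genes with 72 measured members, 12 were higher (16.7%, against 0.582% of all genes) and none was lower. The median over the 72 was 0.36, and 68 lay above 0. Their array medians were -0.28 with vehicle, 0.04 with ERα17p and -0.02 with estradiol, so that against the baseline none passed 1.5-fold on the ERα17p array. Of 21 G2/M cyclins, kinases and phosphatases 4 were higher (median 0.39): cyclin F gene CCNF (-0.88 with vehicle and 0.02 with ERα17p, 0.91, probe sets at 0.88 and 0.94), the checkpoint kinase BUB1B (-0.78 and 0.03, 0.81), polo-like kinase PLK1 (-0.65 and -0.03, 0.62) and cyclin A2 gene CCNA2 (0.59).

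Kinetochore and centromere genes had 3 of 23 higher (median 0.22): the microtubule-binding NDC80 (-0.61 with vehicle and 0.17 with ERα17p, 0.78), the centromeric histone CENPA (0.72) and SPC25 (0.66). Among mitotic kinesins and spindle genes 5 of 28 were higher and all 28 lay above 0 (median 0.38). PSRC1, a microtubule regulator, stood at -0.97 with vehicle and -0.02 with ERα17p (0.95), and KIF23, the cytokinesis motor, at -0.85 and 0.08 (0.93, probe sets at 0.60 and 1.25). CKAP2L (0.90), KIF20A (0.63) and TPX2 (0.63) were the others. TOP2A, the topoisomerase that untangles chromosomes, missed 1.5-fold with 0.51, although 1 of its 3 probe sets reached 1.10. DNA replication and G1/S genes showed no call in 27 (median 0.10), and of 17 CDK inhibitor and RB family genes CDKN1A was lower (median 0.11).

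Some of the higher mitotic genes carry the letters TTTGAA of the CHR element, through which the MuvB complexes act on late cell cycle genes, close to their start. They are shown on the same terms, with the match in capitals: KIF23 at chr15:69414229-69414348 (plus strand), CCNF at chr16:2429327-2429446 (plus strand), BUB1B at chr15:40160949-40161068 (plus strand) and PLK1 at chr16:23678769-23678888 (plus strand).
KIF23: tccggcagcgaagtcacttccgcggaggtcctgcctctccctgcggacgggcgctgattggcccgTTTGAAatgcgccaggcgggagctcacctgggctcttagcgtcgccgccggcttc
CCNF: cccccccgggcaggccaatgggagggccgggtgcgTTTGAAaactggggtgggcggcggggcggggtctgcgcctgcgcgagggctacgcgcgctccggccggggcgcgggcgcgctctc
BUB1B: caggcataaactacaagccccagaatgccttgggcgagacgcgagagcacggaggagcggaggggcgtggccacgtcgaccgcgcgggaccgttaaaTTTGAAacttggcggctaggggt
PLK1: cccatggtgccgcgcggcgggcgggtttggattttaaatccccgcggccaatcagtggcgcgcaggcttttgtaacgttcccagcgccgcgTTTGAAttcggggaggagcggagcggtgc
The match starts 55 bases before the start of KIF23, 85 before that of CCNF, 23 before that of BUB1B and 29 before that of PLK1.

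The largest difference upward was 1.25, in a gene known only by a locus number and not named here. Among named genes outside the mitotic lists, AQP11 differed most. It is a water and peroxide channel of the endoplasmic reticulum, and it stood at -1.13 with vehicle, -0.04 with ERα17p and 0.17 with estradiol (1.09). DKK1, a secreted Wnt antagonist, stood at -1.03, -0.01 and 0.47 (1.02). E2F8 (0.89), a cell cycle repressor gene, and HJURP (0.86), the chaperone that loads CENPA, stood below the baseline with vehicle (-0.68 and -0.74) and slightly above it with ERα17p (0.21 and 0.11). Genes with several probe sets, all higher, included TRIL (0.82), a Toll-like receptor accessory gene, CALHM2 (0.81), a channel gene, SLC40A1 (0.76), the iron exporter ferroportin, and TXNIP (0.71), the thioredoxin inhibitor induced by glucose. PTPRK (0.71), a receptor phosphatase gene, PPP1R3D (0.72), a glycogen phosphatase subunit gene, THSD7A (0.67) and ZBTB7B (0.67) were also of this kind. DEPDC7 (0.91) and GPR52 (0.84), an orphan receptor gene, had 1 probe set each. SLC40A1 was the only call among 11 iron genes (median 0.01), and AQP11 and CALHM2 were the only ones among 17 channel genes (median 0.11). Of all genes 2.73% were called.

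Gene values of receptors and medians of oestrogen-related lists differed little. ESR1 stood at -0.05 with vehicle and 0.00 with ERα17p (0.05), ESR2 at 0.01 and -0.03 (-0.04) and GPER1 at 0.03 and 0.17 (0.14, its 2 probe sets at 0.14 and 0.15). EGFR was at -0.04, ERBB2 at 0.05 and ERBB3 at 0.21. The 9 probe sets of EGFR lay between -0.29 and 0.80, and the 9 of ESR1 between -0.18 and 0.45. None of 16 oestrogen receptor and coregulator genes was called (median 0.01), and of 26 early oestrogen response genes only EGR3 was lower (median 0.06). Of all genes 2.73% were called, so at that share lists of this size, here and below, would hold few or no calls. Of 18 calmodulin and calcium signalling genes RCAN1, a calcineurin inhibitor gene, was lower (-0.78, median 0.04). Actin, SRF and YAP targets had CCN2 lower among 22 (median 0.03), and sterol and fatty acid synthesis had HMGCS1 lower among 17 (-0.60, median 0.05). None was called among 20 oxidative phosphorylation genes, whose differences all lay between 0.01 and 0.26 (median 0.07), or among 20 proteasome subunit genes (median -0.00).

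Set against the baseline, 14 genes passed 1.5-fold on the ERα17p array. Of the 13 above it, 9 were lower than on the array labelled vehicle: CXCL8 (1.65), CCL20 (1.29), CCL2 (0.91), TNFAIP3 (0.84), CXCL11 (0.77), TCIM (0.66), HMOX1 (0.65), TNF (0.64) and SLC7A11 (0.62). These genes therefore lay between the array labelled vehicle and the baseline. TCIM, a Wnt pathway regulator gene, stood at 1.74 with vehicle and -0.09 with estradiol (-1.09 for ERα17p minus vehicle). The other 4, TMEM252-DT (0.65), C3orf33 (0.63), CACNA2D3 (0.63) and NPAP1 (0.60), were higher against both references, each through 1 probe set. MATR3, a nuclear matrix protein gene, was the 1 gene below the baseline (-0.62), and its difference from vehicle, -0.55, did not reach 1.5-fold.

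Against a baseline that is not independent of these arrays, the array labelled vehicle lay farther out in most calls. The genes in which the ERα17p array lay farther out were few. They numbered 2 of the 424 lower genes and 16 of the 115 higher ones. Among the lower was CTSK, the cathepsin K gene (0.25 with vehicle, -0.41 with ERα17p and 0.11 with estradiol, -0.66). Among the higher were TMEM252-DT (-0.22, 0.65 and -0.05), NPAP1 (-0.29, 0.60 and -0.07), BSN-DT (-0.31, 0.56 and -0.06), HSPB3 (-0.29, 0.40 and 0.00), SMCO3 (-0.24, 0.40 and 0.23), RTN4RL2 (-0.35, 0.36 and -0.14), KANK4 (-0.34, 0.34 and -0.20) and KRT25 (-0.32, 0.33 and 0.16). Each of those named here was read by a single probe set, and whether they are expressed in these cells cannot be read from the values.

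The 34 genes that lay at least 2 log2 units above the baseline with vehicle differed in where the treated arrays left them. With ERα17p 25 of the 34 were above the baseline, with a median of 0.12 and a range from -0.24 (FOS) to 1.65 (CXCL8). With estradiol 12 of the 34 were above the baseline, where 46.1% of all genes lay (53.7% with ERα17p), with a median of -0.06 and a range from -0.51 to 0.35. In 1923 of 54675 probe sets the 2 treated arrays lay equally far from the baseline on opposite sides. Counts above it on the 2 arrays are therefore not separate observations. The chemokine, cytokine and stress genes CXCL8, CCL20, CCL2, TNFAIP3, HMOX1 and TNF passed 1.5-fold above the baseline with ERα17p. FOS, MAFF, DUSP10, CXCL3 and ZFP36 were below the baseline with the peptide.

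**Figure D4:**
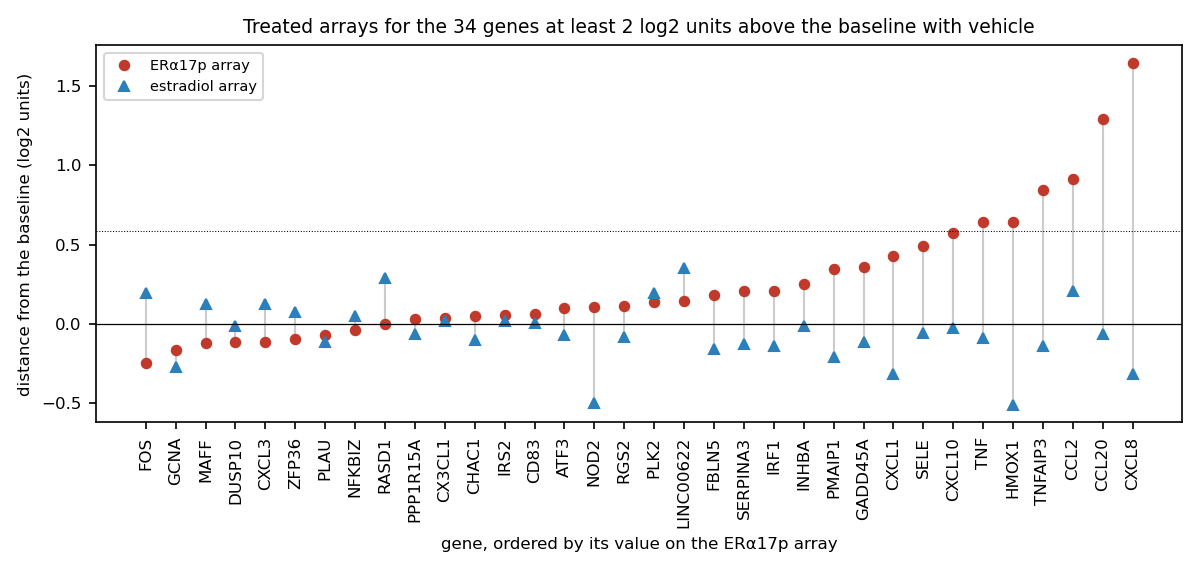
Distances from the baseline (log2 units) on the ERα17p array (circles) and the estradiol array (triangles) for the 34 genes at least 2 log2 units above it with vehicle, ordered by the ERα17p value, with the dotted line at 1.5-fold. The circles run from -0.24 for FOS to 1.65 for CXCL8, and 6 lie above the dotted line, while no triangle does.

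Some of the genes that differed most lay outside every list. FBLN5, an elastic fibre gene, stood at 2.64 with vehicle, 0.18 with ERα17p and -0.16 with estradiol (-2.46). PLAU, which encodes urokinase, stood at 2.23, -0.07 and -0.11 (-2.30), and IRS2, an adaptor gene of insulin signalling, at 2.09, 0.05 and 0.02 (-2.03), each with both probe sets lower.

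Compared directly at 1 µM and 3 h, without the array labelled vehicle, 41 genes were higher with ERα17p than with estradiol (0.207%) and 29 were lower (0.147%). Inflammatory lists held 12 of the 41 and none of the 29 among their 159 genes, and BMP and TGF-β targets held 5 of the 41 among their 20. Past 1.5-fold above the baseline with ERα17p were 6 of the 159 and 0 of the 20. ID1, among those 5, stood at 0.20 with ERα17p and at -1.82 with estradiol. The early transcription factor lists held none of the 41 and 1 of the 29 among their 57 genes. Mitotic genes showed no call either way in 72. At shares of 0.207% and 0.147% over all genes, sets of this size would hold few or no calls. These 2 counts are therefore no result about those genes.

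Promoter windows, from 250 bases before to 50 after the start, were found in RefSeq for 15381 of the 19775 genes, and the first window was taken for the 5191 genes with several. The NF-kB consensus matched in 45 of 338 windows of lower genes (13.3%), in 20 of 107 of those lower by at least 2-fold (18.7%), in 4 of 93 of higher genes (4.3%) and in 995 of all 15381 (6.47%). In the 4 chemokine, cytokine and NF-kB loop lists 20 of 47 windows held it (42.6%), and in the mitotic lists 0 of 61. The 9-letter core GGAATTTCC, which can lie within a consensus match, was in 15 of 338 lower windows (4.44%) and in 69 of all (0.449%). Matches describe letters and do not show binding.

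TTTGAA was in 20 of 93 windows of higher genes (21.5%), 38 of 338 of lower genes (11.2%) and 1836 of all (11.9%). The mitotic lists held it in 39 of 61 (63.9%) and CCAAT, the NF-Y letters, in 44 of 61 (72.1%), whereas CCAAT was near its background of 36.1% in lower (39.9%) and higher (39.8%) genes. TATAAA matched in 14.2% of lower, 15.1% of higher and 8.76% of all windows, and in 23.4% of those lower by at least 2-fold. The CRE letters TGACGTCA were in 4.73% of lower, 5.38% of higher and 2.67% of all windows, and the AP-1 letters TGANTCA in 5.03%, 8.6% and 5.83%. The CArG box of serum response factor, searched by name, matched in 12 of 338 lower windows (3.55%), 0 of 93 higher and 1.21% of all. The oestrogen response element, GGTCA and TGACC with 3 bases between, was in 0 of 338 lower windows, 1 of 93 higher and 6 of all 15381.

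**Figure D5:**
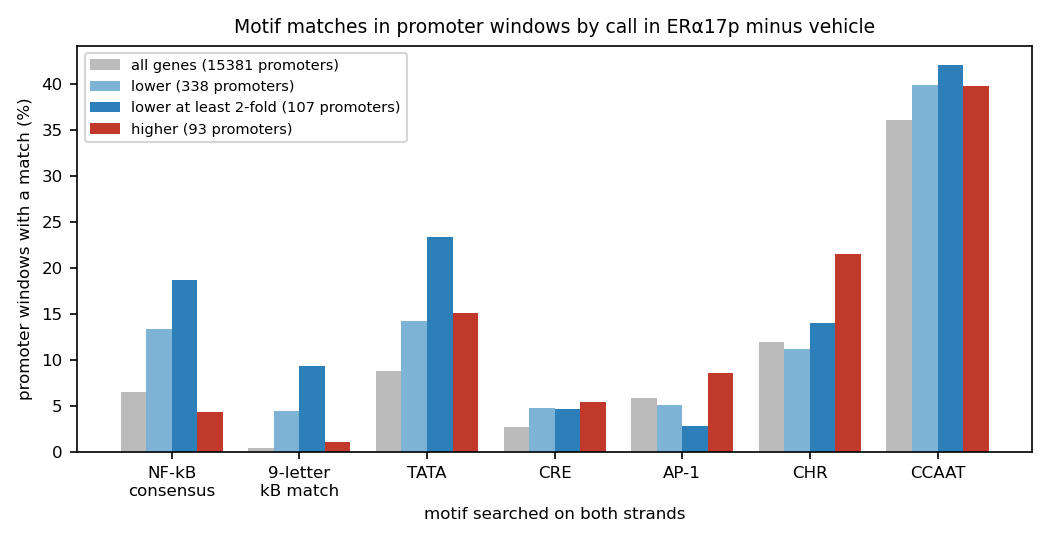
Bars give the percentage of 300-base promoter windows that hold each motif on either strand, for all genes, lower genes, genes lower by at least 2-fold and higher genes. The NF-kB consensus is in 6.47% of all windows and 18.7% of those lower by at least 2-fold, and the CHR letters are in 11.9% of all and 21.5% of higher genes.

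Scaling moved some gene families more than others. After quantile normalization 123 of all 19775 genes were lower and 132 were higher. Calls kept in the same direction numbered 121 out of 424 lower and 58 out of 115 higher. The named genes were picked partly for large differences, so the share of them that kept a call does not stand for all calls. Under quantile normalization 84 of the 146 named genes that were lower or higher still passed 1.5-fold, and 7 turned from lower to above 0: CXCL11 (1.38), CCL2 (1.14), TCIM (0.71), SLC7A11 (0.57), HMOX1 (0.55), TNFAIP3 (0.26) and HMGCS1 (0.14). CCL20 came to 0.00 and CXCL8 to -0.40, while CXCL1 (-1.88), TNF (-0.73) and FOS (-1.35) remained lower. The NF-kB loop list then had 4 of 16 genes lower (median -0.39), the AP-1 and small MAF list 6 of 15 (-0.36) and the EGR, NR4A and IER list 6 of 16 (-0.35), whereas the Krüppel-like factor list and the NRF2 and AhR list had none. Both chemokine lists had 2 genes lower and 1 higher. KIF23 stayed at 0.90, and 9 of the 72 mitotic genes were higher, with 69 above 0 and a median of 0.26.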

How the data were processed

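Each of the 3 RNA samples was hybridised to 1 Affymetrix array, per the labels. The authors used RMA (background correction, quantile normalisation, summary on a log2 scale), per the submitters' processing notes, with no version given in the sources used here. Accordingly the deposited table was read as log2, although no source names the base. Its columns are centred near 0, and in 890 of 54675 probe sets the vehicle and ERα17p values were exact mirror images (tolerance 1e-06). The same held in 1181 probe sets for vehicle and estradiol, and in 1923 for ERα17p and estradiol. In these probe sets the baseline lay midway between arrays of this study. A baseline had therefore been subtracted that is not independent of these arrays. No source used here names the arrays behind it.

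Probe sets were named from the platform annotation, with Entrez IDs matched to the GRCh38.p14 gene table for 41037 of 41091. Of 54675 probe sets, 62 controls, 1801 with several symbols and 11721 unnamed here were left out of gene values. The difference of a gene is that of its medians on both arrays, and a call is 1.5-fold. The number of arrays limits the precision, and nothing says whether they came from separate cultures.

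The genes named were the 15 with the largest difference each way, the 12 each way with the largest mean among genes of 2 or more probe sets that pointed alike, all genes past 1.5-fold on the ERα17p array, up to 10 each way with that array farther out, called members of each of 47 lists and 6 receptor genes, plus, per list, its 6 widest differences (4 where no member was called). Genes with only a locus number or clone name stay unnamed. CXCL2, ID1, the genes with printed promoters, and the zinc finger and neighbouring genes of the closing section were picked after their values were seen. The comparison, the lists (820 genes, 759 measured) and the tests were chosen with earlier results of these data known.

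Alternatives were another summary over probe sets, no probe sets marked as shared between transcripts, median centring, quantile normalization, the baseline as reference, a 2-fold threshold and agreement of probe sets. The calling step was tested on simulated data. Promoters are from RefSeq. Work was done in Python 3.11.15 with numpy 2.4.6, pandas 2.3.3 and matplotlib 3.10.9.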

Additional observations from a re-analysis of the deposited data

How the results depend on the processing

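Against 424 lower and 115 higher genes, the alternatives listed under processing gave 411 and 111 with the mean over probe sets, 372 and 123 without probe sets marked as shared between transcripts, 457 and 99 after median centring, 390 and 112 where all probe sets of a gene pointed alike, 123 lower (and 132 higher) after quantile normalization, 146 and 3 at 2-fold, and 1 and 13 with the baseline in place of the array labelled vehicle. The 390 and 112 include the 215 lower and 90 higher genes with a single probe set, which point alike by construction. Of alternatives chosen after seeing the data, the median of probe set differences gave 414 and 115, and requiring 2 or more probe sets that all pointed alike 175 and 22. The 14 genes past 1.5-fold between the ERα17p array and the baseline became 13 with the mean, 7 without probe sets marked as shared between transcripts, 90 after quantile normalization and 2 at 2-fold. With the baseline as reference, 2 of 47 list medians reversed, NF-kB subunits and inhibitors to 0.0302 and EGR, NR4A and IER genes to 0.0067. Reversed means a change of sign from a median past 1.5-fold. Only these 2 of the 47 lists had such a median, so each list that could reverse did. Smaller medians also changed sign without being counted so, such as the ATF4 branch from -0.32 to 0.04. Others kept theirs, such as AP-1 and small MAF factors from -0.35 to -0.02. Of the rest, 16 moved by over 0.16 log2 units and 29 did not. That spread is the standard deviation of ERα17p minus estradiol over genes. Quantile normalization moved 4 list medians by that much, leaving out those shared probe sets 4 (ATF4 branch from -0.32 to -0.81, Krüppel-like factors from -0.22 to -0.03, mRNA decay factors from -0.21 to -0.0040 and fibroblast markers from 0.01 to 0.20), taking the mean over list members 16, and the mean over probe sets and median centring 0. Beyond what the construction of each alternative sets, the cause was not tested. No paired analysis was possible because each group has 1 array. For the same reason no array could be left out. Signal over background is unknown, so differences of dim genes cannot be told apart from those of bright ones.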

Other observations

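Zinc finger genes named ZNF and a number, a group picked after its values were seen, had 29 of 502 lower (5.78%, against 2.14% of all genes) and 0 higher, with a median of -0.06. They were led by ZNF670 (1.37 with vehicle, 0.15 with ERα17p and -0.22 with estradiol, difference -1.22), ZNF596 (-1.10) and ZNF217 (-1.10), a breast cancer oncogene. After quantile normalization 0 of the 502 were lower, and 0 passed 1.5-fold on the ERα17p array against the baseline.

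Some called genes were neighbours on the chromosome. Of 423 lower genes placed in the gene table, 37 (8.75%) lay next to another lower gene, against 835 of all 19719 placed genes (4.23%). For higher genes this was 6 of 115 (5.22%) against 230 (1.17%). Pairs of lower neighbours were GBP1 and GBP2, both interferon-induced GTPase genes, CXCL10 and CXCL11, NOD2 and CYLD, SNAI1 and CEBPB, the aldo-keto reductase genes AKR1C2 and AKR1C3, WAKMAR2 and TNFAIP3, and SLC7A11 and NOCT. Higher pairs included BMF and BUB1B, and BSN-DT and BSN.

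Lower genes spanned a median of 19.5 kb and those lower by at least 2-fold 13.0 kb, against 24.8 kb for all genes and 16.8 kb for higher ones. Long non-coding RNA genes made up 8.04% of lower, 14.8% of higher and 13.4% of all placed genes.

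Probe sets outside the gene values also differed. Of 11721 unnamed ones 270 were lower (2.3%) and 120 higher (1.02%), between -3.48 and 1.17. Of 1801 with several symbols 65 were lower (3.61%) and 14 higher (0.777%). For the 41091 with 1 symbol the shares were 2.76% and 0.886%.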
